A study of Mus musculus with 6 samples.

Results

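The Ly6 genes described here are 7 members of a family of small surface proteins, Ly6a (which encodes stem cell antigen 1, Sca-1), Ly6c1, Ly6c2, Ly6e, Ly6h, Ly6d and Ly6i, measured in cultured mouse astrocytes. They were picked by name from a deposited table of 55357 genes, and all 7 were found in it. The choice was made with the difference between the groups known, because Ly6a had come out among the largest rises, so the values of the members are described below and are not tested. RNA was sequenced from 3 cultures transfected with a plasmid that expresses FLAG-tagged BRAF KE, the K499E mutant of the kinase BRAF, from the CMV promoter (KE), and from 3 cultures that were not transfected (NT). All 6 cultures held cortical astrocytes, which the study prepared from late-gestation C57BL/6 embryos, and the KE cultures were harvested 48 hours after transfection. The CMV promoter is not specific to astrocytes. Neither an empty-plasmid nor a BRAF WT culture was analysed here, so BRAF KE, the plasmid DNA and the transfection itself cannot be told apart in any difference between KE and NT.

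Ly6 proteins carry a compact fold held together by disulfide bonds and are mostly tethered to the outer leaflet of the plasma membrane by a glycosylphosphatidylinositol (GPI) anchor. In the mouse, the gene cluster has expanded into many close copies, several of which are used as antigens to sort blood, stem and endothelial cells, and some of which are known to respond to interferon. In the brain, Ly6a and Ly6c1 are known from the endothelium of blood vessels, whereas Ly6h and its relative Lynx1 are known from neurons, where they bind nicotinic acetylcholine receptors.

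All 7 members lie on chromosome 15 and are protein coding (Gencode vM39 on GRCm39). From one end of the cluster to the other, Ly6d (ENSMUSG00000034634) lies at chr15:74633902-74635597 on the minus strand, Ly6e (ENSMUSG00000022587) at chr15:74826860-74847454 on the plus strand and Ly6i (ENSMUSG00000022586) at chr15:74851383-74855279 on the minus strand. Next come Ly6a (ENSMUSG00000075602) at chr15:74863840-74869880, Ly6c1 (ENSMUSG00000079018) at chr15:74915847-74920686, Ly6c2 (ENSMUSG00000022584) at chr15:74980003-74988467 and Ly6h (ENSMUSG00000022577) at chr15:75424894-75439354, each on the minus strand. Ly6e is the only member on the plus strand.

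The first 90 coding bases of Ly6a, of its 3 close copies and of Ly6e are shown to let the close copies be compared base by base with a more distant member. Each runs 5′ to 3′ from the start codon of an annotated transcript, was read from the Gencode vM39 transcripts, and has in capitals the bases that differ from Ly6a where the sequences align without a gap. Ly6e does not align without gaps and is left in lower case.
Ly6a: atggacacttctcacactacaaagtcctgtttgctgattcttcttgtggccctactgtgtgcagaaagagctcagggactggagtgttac
Ly6c1: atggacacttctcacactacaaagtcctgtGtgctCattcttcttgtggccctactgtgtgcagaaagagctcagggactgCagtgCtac
Ly6c2: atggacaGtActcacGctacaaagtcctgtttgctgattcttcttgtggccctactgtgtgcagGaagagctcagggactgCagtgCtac
Ly6i: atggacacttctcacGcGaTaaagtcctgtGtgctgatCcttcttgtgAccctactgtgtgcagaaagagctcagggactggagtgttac
Ly6e: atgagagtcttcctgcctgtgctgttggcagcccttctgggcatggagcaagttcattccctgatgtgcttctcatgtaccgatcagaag
In this stretch, Ly6c1 differed from Ly6a at 4 bases, and Ly6c2 and Ly6i each differed at 6. Over the whole coding sequence, Ly6a (402 bases) was 86.3% identical to Ly6i (402 bases), 81.8% to Ly6c1 (393 bases) and 81.6% to Ly6c2 (393 bases). Ly6c1 and Ly6c2 were 97.7% identical to each other, so the first 90 bases alone do not rank the copies by likeness. Ly6a was only 50.9% identical to Ly6e (390 bases), 45.5% to Ly6h (480 bases) and 38.1% to Ly6d (561 bases), with gaps counted as differences.

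To see how far reads could be assigned, every run of 31 bases (31-mer) in the transcripts of each member was looked for in the other genes of the cluster. None of the 31-mers of Ly6e, Ly6h or Ly6d were found in another gene there, and genes outside the cluster were not searched. For Ly6a, 22.5% of 31-mers were found in another gene, including 9.0% in Ly6c1 and 9.8% in the neighbouring Gm28068. For Ly6c1, 44.3% were found in Ly6c2 and 12.4% in Ly6a, and for Ly6c2, 48.8% were found in Ly6c1. For Ly6i, 22.8% were found in another gene. Values of Ly6c1, Ly6c2 and Ly6i are therefore uncertain, since the counting could move reads between them and Ly6a.

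**Figure D1:**
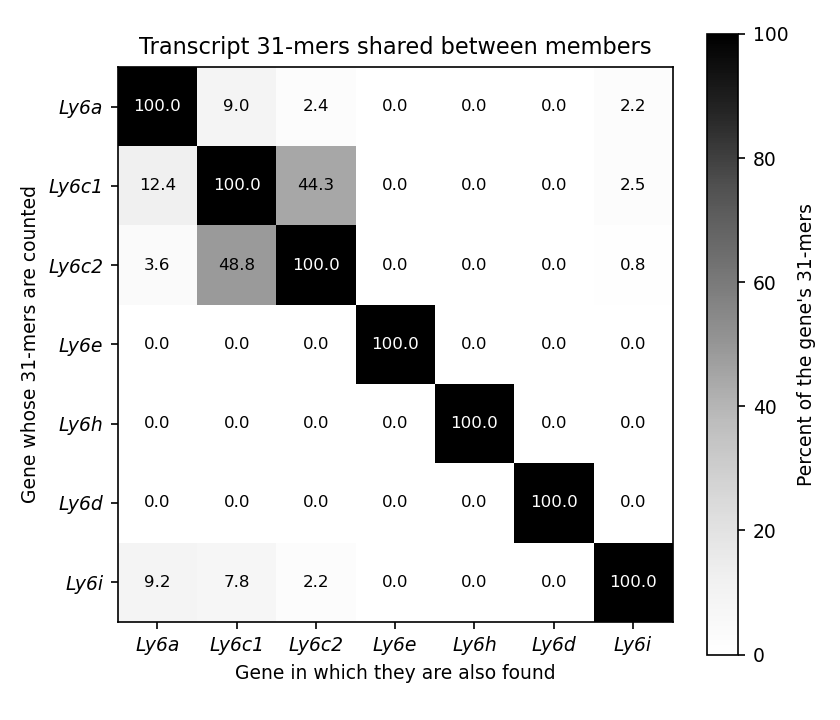
Percent of the 31-mers in each member's transcripts (vertical axis) that also occur in transcripts of another member (horizontal axis), with the gene itself at 100. Ly6c1 and Ly6c2 share 44.3% and 48.8% with each other, whereas Ly6e, Ly6h and Ly6d share none with any member.

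The values are normalized counts, which the authors made by dividing estimated read counts from Salmon by size factors from DESeq2, and the total of a culture lay between 30472429 and 30895529. Sequencing depth, estimated from the worth of 1 read, ranged from 24500000 reads in KE replicate 2 to 34100000 in KE replicate 1. A normalized count of 1 thus stood for about 1 read in each culture. Genes with a mean of at least 10 over the 6 cultures were fitted with limma on the log2(normalized count + 1) scale, which leaves 15280 genes and makes differences of weakly expressed genes look smaller. Of the 7 members, 3 (Ly6e, Ly6a and Ly6h) passed that filter, which used the mean over both groups, and 4 (Ly6c1, Ly6i, Ly6d and Ly6c2) did not. The transfected gene itself, Braf, had normalized counts of 35025, 34933 and 40978 in KE and 925, 811 and 946 in NT, and the table does not separate plasmid from chromosomal transcripts.

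Ly6a was almost silent in NT and well above the filter in KE. Sca-1, its product, is a GPI-anchored antigen used to isolate hematopoietic stem cells. Its normalized counts were 4.69, 6.01 and 9.97 in NT replicates 1, 2 and 3 and 379, 450 and 385 in KE replicates 1, 2 and 3. The lowest KE culture lay far above the highest NT culture, and the KE cultures were within a narrow range of each other. The mean was 6.89 ± 2.75 (SD, n = 3) in NT and 404 ± 39.8 (SD, n = 3) in KE, which made the KE mean 58.7 times the NT mean. On the log2(normalized count + 1) scale, KE exceeded NT by 5.73 (SE 0.25), the rise ranked 7 among the 15280 genes. The NT values correspond to only about 4.7, 5.8 and 10.5 reads, so the size of the ratio rests on few reads, whereas the KE values rest on about 360.2 to 422.6 reads. Ly6a ranked 10899 by its mean normalized count over all cultures, not divided by length.

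Ly6e was the most abundant member in both groups and was higher in KE than in NT. It encodes a GPI-anchored protein that modulates the entry of several viruses into cells. Its normalized counts were 2479, 2650 and 2021 in NT replicates 1, 2 and 3 and 8964, 10847 and 9861 in KE replicates 1, 2 and 3. Again no NT culture reached the lowest KE culture. The means were 2383 ± 325 (SD, n = 3) in NT and 9891 ± 942 (SD, n = 3) in KE, a ratio of 4.15. The log2 difference was 2.06 (SE 0.10), which ranked 193 among all rises. By mean normalized count, not divided by length, Ly6e ranked 932 of the 15280 genes. Its fold difference was smaller than that of Ly6a.

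Ly6h, which is known from neurons and there limits the surface level of nicotinic receptors, was low and overlapped between the groups. Its normalized counts were 21.1, 17.8 and 16.7 in NT and 22.7, 20.4 and 17.4 in KE, in replicate order. The means were 18.5 ± 2.27 (SD, n = 3) in NT and 20.2 ± 2.68 (SD, n = 3) in KE. The log2 difference of 0.11 (SE 0.29) was smaller than its own standard error.

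Ly6c1, an antigen known from brain endothelium and from some T cells, was near the detection limit. Its normalized counts were 0, 1.73 and 3.37 in NT and 10.4, 6.31 and 14.4 in KE. All KE values lay above all NT values, but at about 5.0 to 15.8 reads per KE culture, and its mean missed the filter. The means were 1.70 ± 1.69 (SD, n = 3) in NT and 10.4 ± 4.03 (SD, n = 3) in KE, and no difference was fitted. In KE, Ly6c1 stood at 2.76%, 1.40% and 3.74% of the normalized count of Ly6a in replicates 1, 2 and 3, and in NT at 0%, 28.8% and 33.8%, which rest on few reads of both genes, and whether reads of Ly6a contributed to it was not tested.

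The other 3 members were close to 0. Ly6i, known from myeloid cells, had 1.61, 0 and 1.36 in KE and 0.742, 0 and 0 in NT. Ly6d, a marker of early B-lineage cells and of epithelia, had 0, 0 and 2.72 in KE and 0 in every NT culture. Ly6c2, the antigen that marks inflammatory monocytes, had 0, 0 and 0.906 in KE and 0 in every NT culture. None of these values exceeded about 3 reads, so a difference between KE and NT was not detectable at this depth.

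**Figure D2:**
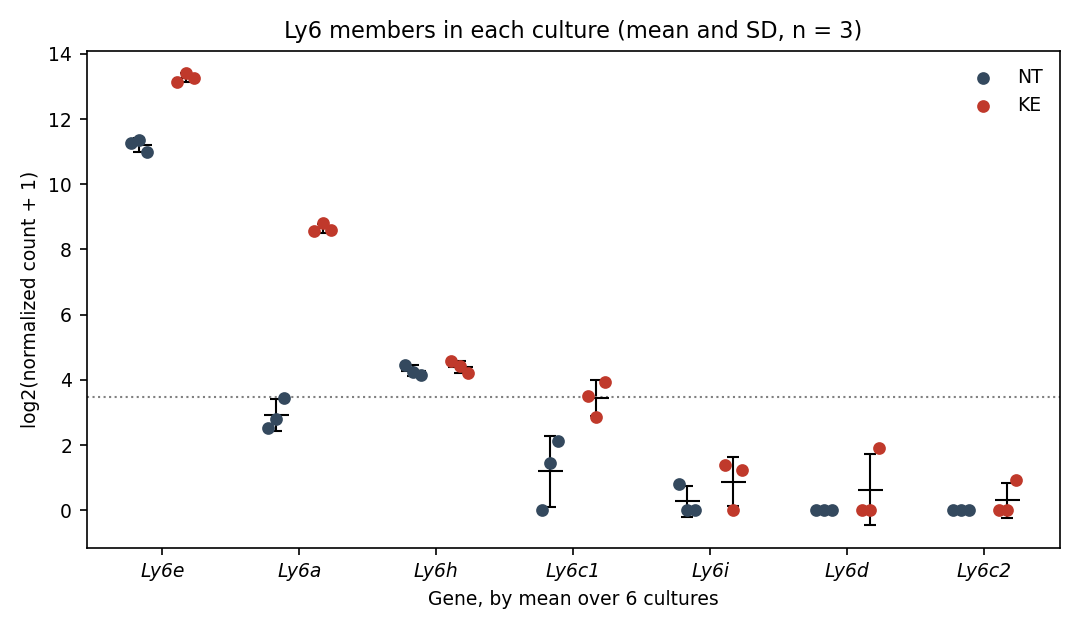
Value of each Ly6 gene in each culture, as log2(normalized count + 1), with NT in dark blue and KE in red. Points are cultures in replicate order, horizontal bars the mean and whiskers the SD of the logged values (n = 3), and the dotted line marks a normalized count of 10. Ly6a and Ly6e are separated between the groups, Ly6h overlaps, and Ly6i, Ly6d and Ly6c2 stay near 0.

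Counted over the members, all 3 KE values lay above all 3 NT values in 3 of 7 (Ly6a, Ly6e and Ly6c1) and in 2 of the 3 that passed the filter. Of all 15280 genes tested, 30.1% showed this separation, 25.3% were called higher in KE and 26% were called lower (limma, Benjamini-Hochberg adjusted p under 0.05, two-sided). Because the members were selected on this contrast, nothing is read from their count against these shares. The median log2 difference over all tested genes was 0.00.

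Levels were divided by the length of the merged exons to compare the members with each other, and their order differed between the groups. In KE, the normalized count per kilobase was 2172 ± 207 for Ly6e, 87.1 ± 8.56 for Ly6a, 5.85 ± 0.777 for Ly6h and 3.14 ± 1.22 for Ly6c1 (SD, n = 3). These 4 did not overlap between neighbours, although Ly6h and Ly6c1 came close, with a lowest value of 5.05 and a highest of 4.35 per kilobase. In NT, the order was Ly6e at 523 ± 71.4, Ly6h at 5.38 ± 0.658, Ly6a at 1.48 ± 0.592 and Ly6c1 at 0.515 ± 0.510 (SD, n = 3). Ly6h thus ranked above Ly6a in every NT culture and below it in every KE culture. In NT, the values of Ly6a and Ly6c1 overlapped, with a lowest Ly6a value of 1.01 and a highest Ly6c1 value of 1.02 per kilobase. Ly6e exceeded Ly6a per kilobase by a ratio of means of 25.0 in KE and 353 in NT, or 40.3 and 570.1 with the longest transcript as the length. Ly6i, Ly6d and Ly6c2 overlapped each other in both groups.

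The ratio of Ly6a to Ly6e was higher in every KE culture than in any NT culture. Ly6a stood at 4.22%, 4.15% and 3.90% of the normalized count of Ly6e in KE replicates 1, 2 and 3. In NT replicates 1, 2 and 3 it stood at 0.189%, 0.227% and 0.494%, values that rest on about 4.7 to 10.5 reads of Ly6a. The NT cultures had a different order for each gene, in that NT replicate 3 was the highest for Ly6a and the lowest for Ly6e.

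The position of a gene in the cluster was not used to choose the members. The span from Ly6d to Ly6h covers 805 kb and holds 41 genes of the table, of which 18 are protein coding and 27 were at 0 in all 6 cultures. Only 3 genes of the span passed the filter, and each was a member, so no other gene between Ly6d and Ly6h could be tested. The start of Ly6e lies at -43.02 kb relative to that of Ly6a, on the side of Ly6d. Ly6i, which lies between Ly6e and Ly6a, stayed near 0. In the 500 kb before the span, 5 genes were tested, with log2 differences from -0.43 to 0.22 and a median of -0.09, and in the 500 kb after it, 17 were tested, from -0.90 to 0.77 with a median of 0.07. Of the 5, 1 was called higher (Lynx1) and 1 lower (Arc, an activity-regulated synaptic gene), and of the 17, 5 were called higher and 3 lower. The shares over all tested genes were 25.3% higher and 26% lower. The width of these flanks was chosen, and Arc was named, after the values had been seen. No tested gene of either flank came near the difference of Ly6e. This is a description, since the members were picked on this contrast.

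**Figure D3:**
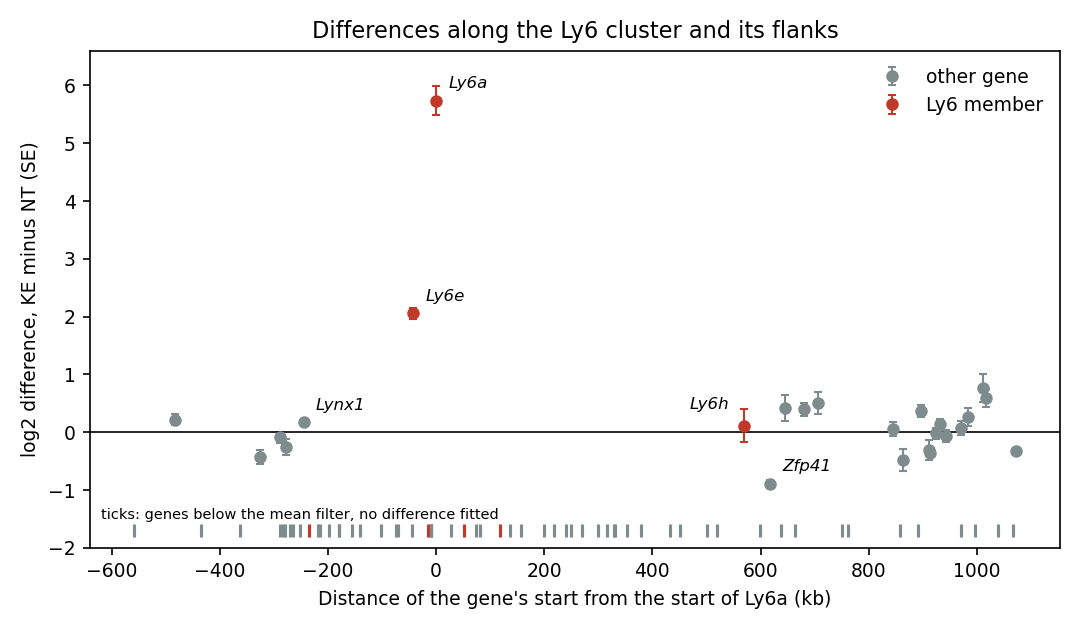
Log2 difference between KE and NT, with its SE, against the distance of each gene's start from that of Ly6a in kb, for the span from Ly6d to Ly6h and 500 kb on either side. Members are red and other genes grey, and ticks along the bottom are genes below the filter. Ly6a (5.73) and Ly6e (2.06) lie above the flanking genes, which lie between -0.90 and 0.77. The members were chosen with this contrast known, so this is a description and no test of position.

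A list of 33 further Ly6/uPAR family genes, which share the fold, held calls in both directions. Of the 33, 16 were at 0 in all cultures and 6 were tested, with a median log2 difference of 0.08. Lypd1, another binder of nicotinic receptors, fell, with normalized counts of 176, 212 and 169 in NT and 88.3, 103 and 115 in KE (log2 difference -0.86, SE 0.15, adjusted p = 0.000822, limma). Plaur, the receptor for urokinase, was called lower, with 289, 286 and 268 in NT and 190, 251 and 227 in KE (-0.34, SE 0.13, adjusted p = 0.0396, limma). Lynx1, which lies just outside the span, was called higher by a small margin, with 2398, 2507 and 2682 in NT and 2762, 3018 and 2766 in KE (0.17, SE 0.06, adjusted p = 0.045, limma). When 1 culture was left out at a time, the call of Lypd1 held in 6 of 6 fits, but that of Lynx1 held only without NT replicate 3 and that of Plaur only without KE replicate 2, and the adjusted p ranged from 0.0308 to 0.152 for Lynx1 and from 0.0197 to 0.156 for Plaur. Cd59a, a GPI-anchored inhibitor of complement, differed by 0.21, Lypd6 by 0.00 and Ly6g6d by 0.42 on the log2 scale, and none of the 3 passed the test.

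Genes that respond to interferon, as Ly6a and Ly6e are known to do in other cells, were higher in KE throughout. Each of the 21 listed genes passed the filter and was called higher, with a median log2 difference of 2.95 and a range from 0.87 (Irf9, a subunit of the transcription factor that mediates the type I response) to 4.64 (Mx2, an antiviral GTPase). Mx1, a second antiviral GTPase, rose by 4.25. Ly6a, at 5.73, lay above the highest gene of this list, and Ly6e, at 2.06, lay below its median. The list leaves out other genes induced by interferon, some of which rose more than Ly6a. The summed normalized count of the list was 33618 to 48838 in NT and 312683 to 319129 in KE. The list was written with earlier results of these data known.

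Of the interferons and their receptors, Ifnb1, which encodes interferon beta, was listed at 0 in all 3 NT cultures and had normalized counts of 233, 198 and 235 in KE. Ifnar2, a subunit of the type I receptor, rose by 0.51, while the other subunit Ifnar1 fell by 0.27 and the type II subunit Ifngr1 fell by 0.30. Ifngr2 differed by -0.09 and did not pass the test. Ifng, which encodes interferon gamma, was at 0 in all 6 cultures. In all, 2 of the 5 tested genes of this group were called higher and 2 lower.

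The machinery that builds and attaches GPI anchors, on which the surface display of Ly6a and Ly6e depends, showed no common direction. Of 25 listed genes, 24 were in the table and tested, and 7 were called higher, 4 lower and 13 not called, with a median log2 difference of 0.03. Over all tested genes, 25.3% were called higher and 26% lower. Pigv (0.55), which encodes a mannosyltransferase, and Pigh (0.54), which acts with Piga in the first step of synthesis, had the largest rises. Pgap1, which remodels the anchor after attachment, fell by 1.23, and Piga, which encodes the catalytic subunit of the first step, fell by 0.68. Without NT replicate 1, 4 genes rather than 7 were called higher.

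Nicotinic acetylcholine receptor subunits, which Ly6h and Lynx1 bind, were mostly too low to test. Of 11 subunits, 3 were tested. Chrna7 rose by 0.83, Chrna4 fell by 0.76 and Chrnb2 differed by 0.44 without passing the test.

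**Figure D4:**
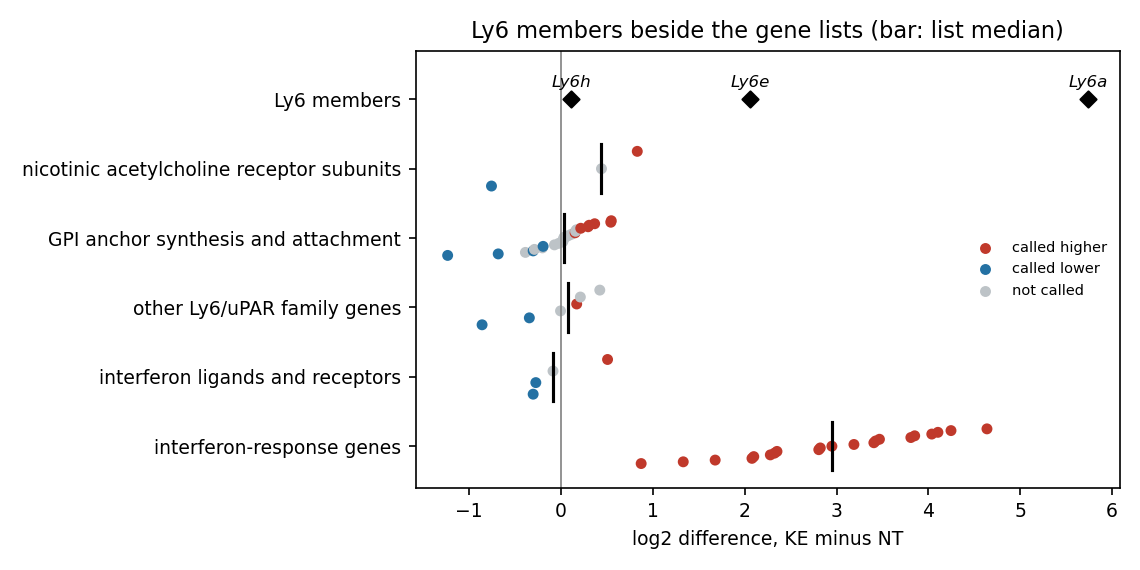
Log2 difference between KE and NT for the tested genes of 5 lists and for the 3 Ly6 members that passed the filter (black diamonds). Red and blue points were called higher and lower, grey points were not called, and the black bar is the list's median. Ifnb1 is left out because it was at 0 in NT. Ly6a lies to the right of all 21 listed interferon-response genes, a list that leaves out some genes with larger rises.

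The genes whose profiles over the 6 cultures were most like those of Ly6a and Ly6e were looked up among 12071 genes of mean at least 100, by Euclidean distance between centred log2(normalized count + 1) values. This is a description, in which genes of like fold difference come out together. Closest to Ly6a were Gm43302 (distance 0.72), Braf (0.85), Tgtp1 (1.21), Gbp11 (1.59) and Tgtp2 (1.65). Tgtp1, Tgtp2 and Gbp11 belong to families of GTPases induced by interferon, and Braf is the transfected gene. Tgtp1 (log2 difference 5.83) and Tgtp2 (5.95) rose more than Ly6a (5.73), and Gbp11 (5.03) rose less. These GTPase genes were not in the list of interferon-response genes. Among the genes closest to Ly6e were Cfb (0.13), Bst2 (0.17), Parp10 (0.17) and Trim34a (0.20). Cfb is a complement factor, and Bst2 encodes tetherin, which holds budding virus at the membrane. Ly6a and Ly6e were 4.60 apart from each other and shared none of these neighbours.

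Because Ly6 antigens are known from several cell types, markers of those types were followed in the same cultures, and in such bulk RNA fewer cells of a type and less RNA per cell cannot be told apart. All 10 astrocyte markers passed the filter, from Slc1a3 (mean 39859 in NT and 47360 in KE) and Gfap (17292 and 31508) down to S100b, which was low (26.7 and 17.7) and did not pass the test. Of the 10, 7 were called higher in KE, 1 lower (Gja1) and 2 not called. For this and the other marker lists, the shares over all tested genes were 25.3% higher and 26% lower. The summed normalized count of the astrocyte markers was 113309 to 118554 in NT and 159245 to 161892 in KE. Markers of the endothelium, a known site of Ly6a and Ly6c1, were lower in KE in 3 of the 4 tested (Pecam1, Slco1a4 and Flt1), with a sum of 1351 to 1980 in NT and 910 to 1058 in KE. Kdr differed by -0.49 and did not pass the test. The other 6 were below the filter and did not share a direction. Cldn5 was 0 in each KE culture and 0, 2.07 and 0 in NT, and Cdh5 was 0, 0 and 0.905 in KE and 5.94, 1.04 and 3.81 in NT. Emcn was 2.43, 3.37 and 2.44 in KE and 1.27, 1.33 and 0 in NT, and the means in KE and NT were 9.71 and 5.11 for Tek, 6.35 and 2.67 for Esam and 1.46 and 0.686 for Erg. T cell markers Cd3d, Cd3e, Cd3g and Cd8a were at 0 in all 6 cultures. The list's sum, 27.4 to 52.3 in NT and 97.3 to 144 in KE, was nearly all Lck, a kinase that rose by 1.64.

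Of 12 microglia and macrophage markers, all 12 were called lower in KE, with a median log2 difference of -3.34 and a sum of 37719 to 44362 in NT and 4677 to 6278 in KE, led by Fcrls (-4.12) and Itgam (-4.07). Monocyte and neutrophil markers summed to 204 to 235 in NT and 18.9 to 28.7 in KE, with Elane, Mpo, Retnlg and S100a9 at 0 in every culture. In NT the sum was mostly Csf3r, the only 1 of the 8 that was tested, at 211, 210.0 and 182 in NT and 21.9, 20.2 and 15.3 in KE, while the means in KE and NT were 0 and 12.8 for S100a8, 0.765 and 3.44 for Ccr2, and 4.49 and 5.08 for Camp. All 7 tested oligodendrocyte lineage markers were called lower. The highest of them by normalized count, Olig1, had a mean of 23693 in NT and of 20749 in KE. In NT this count was above that of Gfap, but neither was divided by gene length. Of 7 tested neuron markers, 2 were called higher, 2 lower and 3 not called, and of 7 fibroblast and mural cell markers, 2, 3 and 2. The part of these shifts in the values of the Ly6 genes was not tested.

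**Figure D5:**
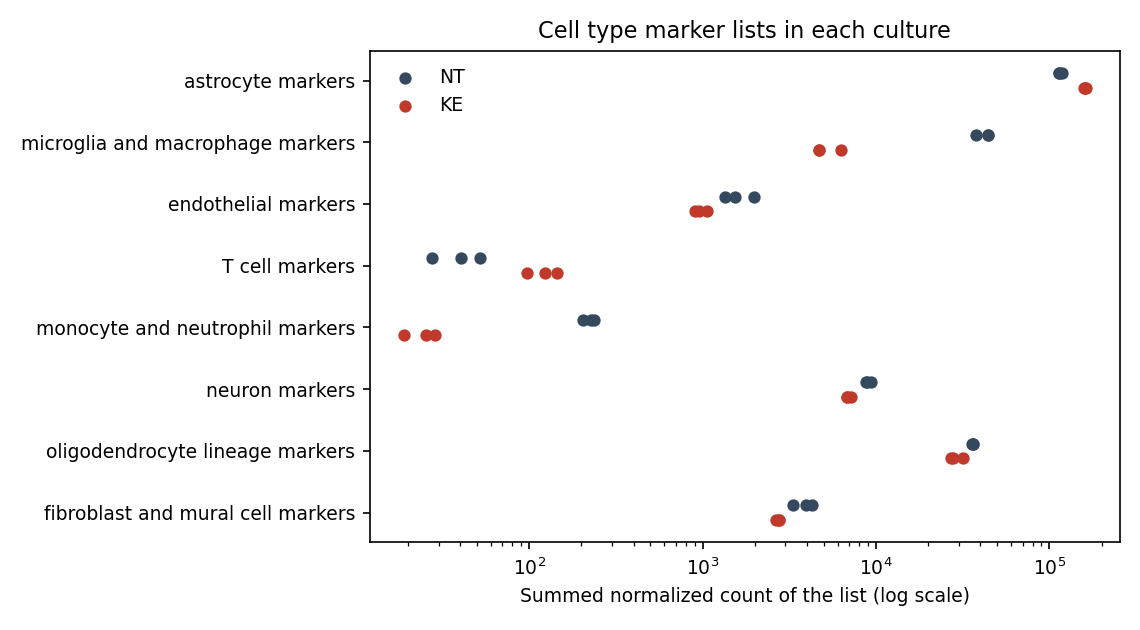
Summed normalized count of each cell type marker list in each culture, on a log axis, with NT in dark blue and KE in red. Microglia and macrophage markers fall from at least 37719 in NT to at most 6278 in KE, and the endothelial sum, which is mostly Slco1a4 and Flt1, from at least 1351 to at most 1058.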

How the data were processed

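The authors deposited normalized counts for 6 libraries (TruSeq stranded mRNA), a signal made from Salmon's estimated counts divided by DESeq2 size factors after trimming with Trim Galore and alignment with STAR. The methods name GRCm39 for mouse data, whereas the submitters' processing notes name GRCh38, a human build, and which was used for these values could not be settled beyond the identifiers, which are those of mouse genes. Batches were adjusted for in the authors' own test but are not named, so none was modelled. Whole reads were not recovered, since between 72.7% and 75.8% of the low values fell near (within 0.1 of) whole multiples of 1 read, so no count test was run and the intervals that counts would give are not printed.

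The 7 members and all gene lists were chosen with earlier results of these data known, and the members are therefore described without a test. Values were fitted as log2(normalized count + 1) in limma 3.58.1 (R 4.3.3), with a variance trend and group as the only factor, for the 15280 genes with a mean of at least 10, with Benjamini-Hochberg adjustment over the whole table tested. Calls are at an adjusted p under 0.05, two-sided. Nothing states that the cultures were separate preparations, so p-values measure the spread between these samples, which may be technical. The fit was also run on simulated data in which far fewer genes differed than were called here, so that run is not used as support for these calls. The rule for naming genes covered all members, the 2 largest called rises and falls of each list, the 5 genes nearest in profile, and Braf and Ifnb1. Some genes that this rule covers are not named, such as Atp1b2, Nefl and Mbp. Others outside it are named, such as Cd59a, Lypd6, Ly6g6d, Kdr, S100b and Ly6g6g. Of the gene identifiers, 54749 were found in Gencode vM39, whose transcripts gave lengths, coding sequences and 31-mers. Alternatives were other pseudocounts (0.5 and 5), no filter or a mean of at least 50, quantile or 75th percentile scaling, no variance trend, the replicate number as a block, another gene length, and leaving out each culture in turn.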

Additional observations from a re-analysis of the deposited data

How the results depend on the processing

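Of 245 alternative values, 224 stayed within 1.5 times the main count or, for a difference or ratio, within 1 SD between cultures of the main value. Ly6a differed by 5.13 on the log2 scale with a pseudocount of 5 in place of 1, and by 5.53 to 6.0 when 1 culture was left out. Leaving 1 culture out gave 1.94 to 2.14 for Ly6e and 0.03 to 0.21 for Ly6h, which had no value under the mean of at least 50. With the longest transcript as the length, Ly6e over Ly6a per kilobase was 40.3 in KE and 570.1 in NT, and leaving 1 culture out gave 24.4 to 25.3 and 298 to 489. Of the other Ly6/uPAR genes, 0 were called higher under quantile normalization, 75th percentile scaling or no variance trend, and 0 to 1 with 1 culture left out, against 1 (Lynx1). With no filter the count stayed at 1, but Lynx1 itself lost its call (limma, adjusted p = 0.0639). Called lower were 1 with no filter, 1 under quantile normalization, and 1 to 2 with 1 culture left out, against 2. GPI genes called higher numbered 4 to 6 with 1 culture left out, against 7, and 2 nicotinic subunits were called higher under quantile normalization, against 1. With no filter, 4 genes of the cluster (Ly6a, Ly6e, Ly6c1 and Ly6g6g) passed the threshold as higher, against 2 (Ly6a and Ly6e), which is no test of the members, since they were picked on this contrast. The cause of these changes was not tested. Quantile normalization shifted the median log2 difference by 0.03.

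A fit with a block for replicate number called 3967 genes higher and 4079 lower, against 3870 and 3974, and 7669 genes were called in both fits. After each gene's group mean was subtracted, the deviations of each KE culture correlated best with those of the NT culture of its own number. For these deviations, r was 0.059, 0.066 and 0.065 across genes, against -0.05 to -0.01 for other pairs. This is a hint from the data only, since the labels do not say that the numbers pair the cultures. The block left the counts of calls in the 5 lists of family, interferon, GPI and nicotinic receptor genes and in the cluster as they were, and it was not run for the marker lists, the flanks or the separation of the groups. Depth limits Ly6c1, Ly6i, Ly6d and Ly6c2, at no more than 15.8 reads in any culture, and Ly6a in NT.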

Other observations

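Within NT, the rank of the cultures differed between the Ly6 genes. Ly6a was 4.69, 6.01 and 9.97 and Ly6c1 was 0, 1.73 and 3.37 in NT replicates 1, 2 and 3, both highest in replicate 3. The summed endothelial markers were 1351, 1546 and 1980 in the same order, a sum carried by Slco1a4 (1008, 1161 and 1484) and Flt1 (273, 311 and 428). Kdr (22.8, 24.9 and 27.6) and Tek (1.04, 4.33 and 9.97) were also highest in replicate 3, whereas the other 6 markers, such as Pecam1 (34.3, 36.3 and 26.8), Cdh5 (5.94, 1.04 and 3.81) and Cldn5 (0, 2.07 and 0), were not. Ly6e was 2479, 2650 and 2021 and the summed interferon-response genes were 44395, 48838 and 33618, both lowest in replicate 3. With 3 cultures no relation was tested.

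Ly6g6g (ENSMUSG00000101026), a further Ly6 gene of the cluster, was below the filter with 2.71, 6.26 and 3.62 in KE and 0.991, 1.03 and 0 in NT. It was singled out after its values were seen. Ly6g6d, which is not a member and overlapped between the groups, had 25.1, 24.6 and 16.6 in KE and 14.7, 11.3 and 24.2 in NT.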
